A study of Mus musculus with 10 samples.

Results

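In mouse bone marrow-derived mast cells, 1923 H3K4me1 regions lay more than 100 kb from every H3K27ac peak, in stretches of chromosome with no called peak of the acetylation mark. They were 4.56% of the 42133 H3K4me1 consensus regions on chromosomes 1 to 19. A consensus region was a joined stretch of overlapping peaks that held a peak of both H3K4me1 lists, and a remote region was one whose nearest edge was more than 100 kb from the nearest peak in any of the 3 H3K27ac lists. Of the other consensus regions, 24042 lay off H3K27ac but within 100 kb of it, and 16168 overlapped it. Because the regions were chosen by these peaks, their distance from H3K27ac is a description, and so is their height in the lists that called them. Their number rested on both H3K4me1 lists and on the limits: it was 2926 with all peaks of replicate 2 alone (replicate 1 left out), 3650 with those of replicate 1 alone, and 768 with only H3K4me1 peaks of −log10 q of at least 10.

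Monomethylation of histone H3 at lysine 4 (H3K4me1) is laid down at enhancers before, during and after their use, by the methyltransferases MLL3 and MLL4. Acetylation of lysine 27 of the same histone (H3K27ac), written by p300 and CBP, is found at enhancers and promoters in use. Enhancers with H3K4me1 and no H3K27ac are commonly called primed, or poised where the repressive mark H3K27me3 is also present. H3K27me3 is not part of the data used here, so the kind of element at a remote region cannot be told from these lists.

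The series held 3 H3K27ac and 2 H3K4me1 immunoprecipitates, each with an input of its own, 10 samples in all. The stated purpose was to find putative enhancers. All came from C57BL/6 mice 6 to 8 weeks old, whose marrow was cultured for 4 weeks with interleukin-3 at 20 ng/ml, a cytokine that favours mast cells, until over 99% of cells carried the IgE receptor and Kit. No treatment or genetic change separated the samples, and nothing in the labels says whether replicates were separate cultures, so differences between lists may be technical. Duplicates aside, the H3K4me1 lists rested on 19513552 tags in replicate 1 and 14685161 in replicate 2, and the H3K27ac lists on 10457047 to 16356587. They held 70726 and 59430 H3K4me1 peaks and 30599 to 39837 H3K27ac peaks. The peak caller's version differed between the marks, and the effects of version and mark cannot be told apart. An absent H3K27ac peak means that the signal stayed under the caller's limit at this depth, not that acetylation was absent. Positions are those of the mm9 build, counted from 1. An annotation of that build was not used here, so regions are named by position, promoters were not separated from enhancers, and the labelled cell type was not checked at its marker genes.

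The highest remote region was among the highest H3K4me1 peaks of both lists. The region with the best mean rank by fold, the authors' ratio of tags at a peak's summit to the local background from the input, was chr2:37787536-37788533. Its highest fold was 19.5 in H3K4me1 replicate 1 and 17.0 in replicate 2, ranks of 20 and 15 among all peaks of those lists, from 73 and 67 tags at the summit. Its summits in the lists lay 25 bp apart, and the nearest H3K27ac peak was 199 kb to the right and 363 kb to the left. This region therefore stood near the top of both lists, with 1 other consensus region within 100 kb.

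The next 4 regions by mean rank were high in at least 1 list. The region chr1:181006117-181007316 had folds of 16.5 and 10.9, with 56 and 34 tags, 440 kb from H3K27ac. The region chr18:38790901-38792163 had folds of 12.1 and 14.8, with 64 and 58 tags, 136 kb away. The region chr4:107277747-107278704 had folds of 13.4 and 11.4, with 72 and 54 tags, 110 kb away. The last of the 5, chr2:105508395-105510640, was 2246 bp long with folds of 11.998 and 14.3, and had 8 other consensus regions within 100 kb. Only the first of these ranked within the first 100 peaks of both lists; the region on chromosome 18 ranked 122 in replicate 2 but 2488 in replicate 1.

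Among the 1923 remote regions, peaks ran from barely called to very high. Highest folds ranged from 2.46 to 19.5 in replicate 1, with a median of 6.58 and quartiles of 5.24 and 8.24. In replicate 2 they ranged from 2.48 to 17.0, with a median of 6.17 and quartiles of 4.99 and 7.52. Lengths ranged from 255 to 3514 bp around a median of 609 bp, and 351 regions (18.3%) reached 1 kb, against 21.4% of all consensus regions. Regions made of 1 peak from each list numbered 1766 (91.8%), near the 89.5% of all consensus regions. The summits of the lists lay a median of 75 bp apart, against 59 bp in all consensus regions. Both lists gave a −log10 q of at least 10 at 769 remote regions (40.0%), against 44.5% of regions off H3K27ac within 100 kb and 51.5% of all consensus regions.

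Remote regions were nearly as high as regions that lay off H3K27ac but closer to it, and lower than regions that overlapped H3K27ac. In replicate 1 the median highest fold was 6.58 for remote regions, against 6.66 for those off H3K27ac within 100 kb and 7.53 for those overlapping it. In replicate 2 the medians were 6.17, against 6.23 and 6.76. Remote over off-H3K27ac medians gave ratios of 0.988 and 0.991, a mean of 0.990 ± 0.00170 (SD, n = 2 lists). Remote over overlapping medians gave 0.874 and 0.913, a mean of 0.894 ± 0.0274 (SD, n = 2 lists). Both ratios were below 1 in both lists, but an exact two-sided sign test over 2 lists gives p = 0.5 and cannot go lower. The lists are also the ones that chose the regions, so no support is drawn from these medians.

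The tags behind these folds told the same order. The median summit of a remote region held 34 tags in replicate 1 and 26 in replicate 2, against 35 and 28 off H3K27ac within 100 kb, and 42 and 33 overlapping it. The local background was worked out from the fold and the pileup as scaled by the caller. It is in those scaled units, so it cannot be divided into the tags above. Its median was 3 in all 3 sets in replicate 1. In replicate 2 the median background was 2.56 for remote regions and 3 for the other sets, so the replicate 2 fold of remote regions stood on a slightly lower background. In length, remote regions had a median of 609 bp, against 569 bp off H3K27ac within 100 kb and 694 bp overlapping it. Against all other consensus regions together, the median length was 609 bp for remote regions and 611 bp for the rest.

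**Figure D1:**
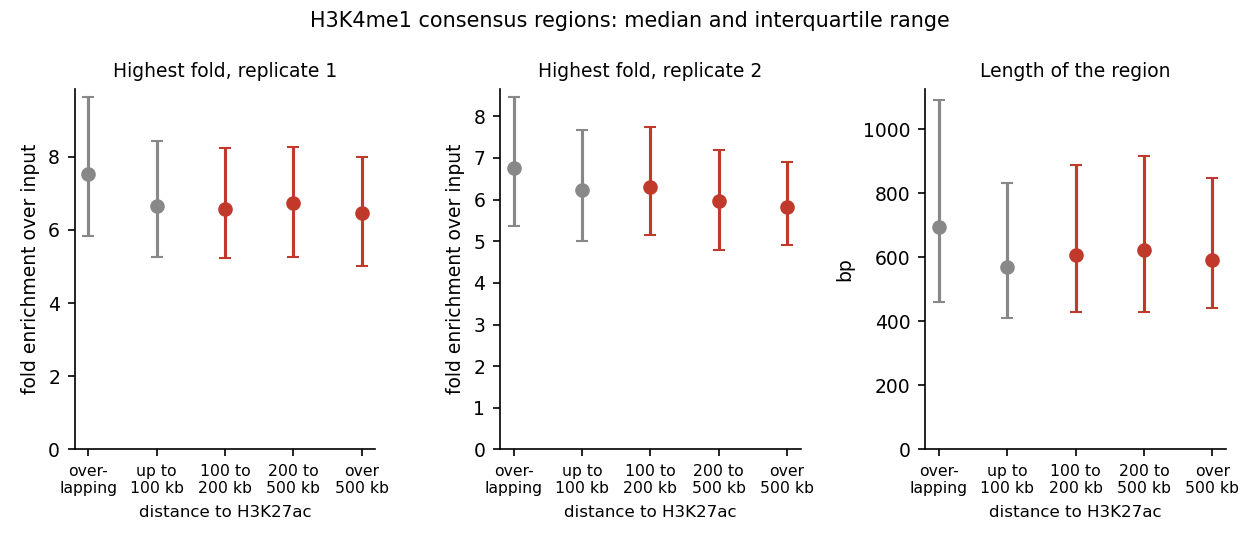
Highest fold over input in H3K4me1 replicates 1 and 2 (left and middle) and region length in bp (right), by distance from H3K27ac. Points are medians over regions, bars the interquartile range, remote regions are red, and the red medians of fold, 6.46 to 6.74 in replicate 1 and 5.83 to 6.31 in replicate 2, lie below those of regions overlapping H3K27ac, 7.53 and 6.76.

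Farther from H3K27ac, the median fold changed little in replicate 1 and was lower in replicate 2. At 100 to 200 kb, 200 to 500 kb and over 500 kb from H3K27ac, the median highest fold was 6.56, 6.74 and 6.46 in replicate 1, and 6.31, 5.96 and 5.83 in replicate 2. These classes held 1273, 548 and 102 regions. Replicate 1 showed no order with distance, whereas the replicate 2 medians were lower in each farther class. Median tags at the summit were 34, 33 and 33 in replicate 1, and 27, 25 and 24 in replicate 2. A fold in the top 10% of all peaks was found at 8.80%, 7.85% and 8.82% of the regions in replicate 1, and at 9.98%, 7.12% and 5.88% in replicate 2. Both lists gave a −log10 q of at least 10 at 41.8%, 38.3% and 26.5% of the regions of these classes. Across the 1923 regions, Spearman's rho of distance and fold was -0.02 in replicate 1 and -0.09 in replicate 2. Regions of a desert share neighbours and all share the same libraries, so these are descriptions.

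The very highest peaks were scarcer among remote regions than among consensus regions in general. A fold within the top 10% of all peaks of replicate 1 was found at 164 remote regions, or 8.53% (95% Clopper-Pearson interval 7.32 to 9.87), against 14.5% of all consensus regions. In replicate 2 it was found at 172, or 8.94% (7.71 to 10.3), against 13.2% of all consensus regions. In both lists at once it was found at 32 remote regions, 1.66% (1.14 to 2.34), against 4.07% of all. For regions off H3K27ac within 100 kb the shares were 10.8%, 10.4% and 2.55%, and for those overlapping H3K27ac 20.9%, 17.8% and 6.62%. Such intervals cover counting error only.

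The lists agreed only loosely on which remote regions were high. Spearman's rho between folds in replicates 1 and 2 was 0.15 over the 1923 remote regions, 0.20 over the 24042 off H3K27ac within 100 kb and 0.24 over the 16168 overlapping it. Folds of the 2 lists were within 1.5 times of each other at 1282 remote regions (66.7%), against 26524 of the other regions (66.0%). The fold was higher in replicate 1 at 1091 remote regions (56.7%) and at 58.3% of the others. The order of single regions by fold is therefore weakly fixed by 2 lists.

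**Figure D2:**
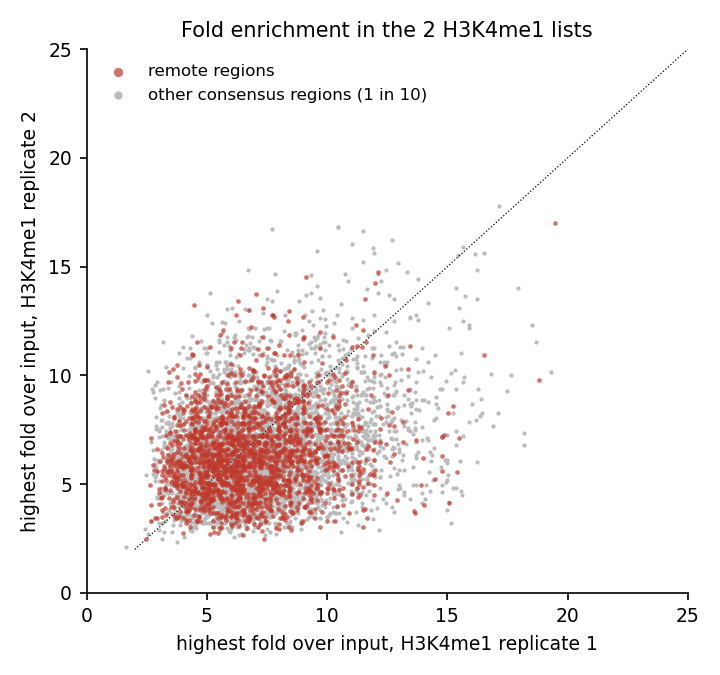
Highest fold over input of each region in H3K4me1 replicate 1 (x axis) and replicate 2 (y axis), for all 1923 remote regions (red) and 1 in 10 of the other consensus regions (grey), with a dotted line of equality. Remote regions spread through the grey cloud, and the region on chromosome 2 at 19.5 and 17.0 stands at its upper right.

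A remote H3K4me1 peak recurred in the other list less often than a peak on H3K27ac, and, compared with a peak off H3K27ac within 100 kb, slightly less often in replicate 1 and about as often in replicate 2. Joining the peaks of both lists gave 4472 regions more than 100 kb from H3K27ac, of which 1923, or 43.0% (41.5 to 44.5), held a peak of both, against 51.4% of all joined regions. The share was 45.3% (44.9 to 45.8) off H3K27ac within 100 kb and 66.0% (65.4 to 66.6) overlapping it. Of the remote joined regions, 1619 came from replicate 1 only and 930 from replicate 2 only. By distance the share was 44.7% (42.8 to 46.5) at 100 to 200 kb, 41.3% (38.7 to 44.0) at 200 to 500 kb and 34.6% (29.2 to 40.3) over 500 kb.

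Peak by peak, 55.6% of the 3650 remote peaks of replicate 1 overlapped a peak of replicate 2, against 60.6% of peaks off H3K27ac within 100 kb and 75.8% of those overlapping it. Of the 2926 remote peaks of replicate 2, 68.2% overlapped a peak of replicate 1, against 68.5% and 85.1%. In the highest 25% of peaks by fold in each list, the shares were 73.4% of remote peaks in replicate 1, against 75.6% and 87.0%, and 83.5% in replicate 2, against 84.4% and 92.8%. Below that class the remote shares did not follow fold in order. In the 3 lower classes of 25% of peaks, from low to high fold, they were 49.5%, 49.3% and 56.3% in replicate 1, and 66.9%, 61.6% and 65.3% in replicate 2. For peaks off H3K27ac within 100 kb they were 54.7%, 55.6% and 59.96% in replicate 1, and 65.3%, 59.9% and 67.7% in replicate 2.

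H3K4me1 thinned out steeply with distance from H3K27ac. Per Mb of sequence, counted between the first and the last peak of each chromosome, there were 84.4 consensus regions up to 10 kb from an H3K27ac peak, peaks themselves included, 16.5 at 10 to 50 kb and 9.10 at 50 to 100 kb. There were then 4.05 at 100 to 200 kb (95% Poisson interval 3.83 to 4.28), 1.26 at 200 to 500 kb (1.15 to 1.37) and 0.198 over 500 kb (0.161 to 0.240). These intervals count regions as independent, and many regions lay in groups, so they may be too narrow. Each step outward lowered the density, and the single lists showed the same order. Replicate 1 gave 7.31, 2.53 and 0.485 peaks per Mb in the last 3 classes, and replicate 2 gave 6.17, 1.90 and 0.304.

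**Figure D3:**
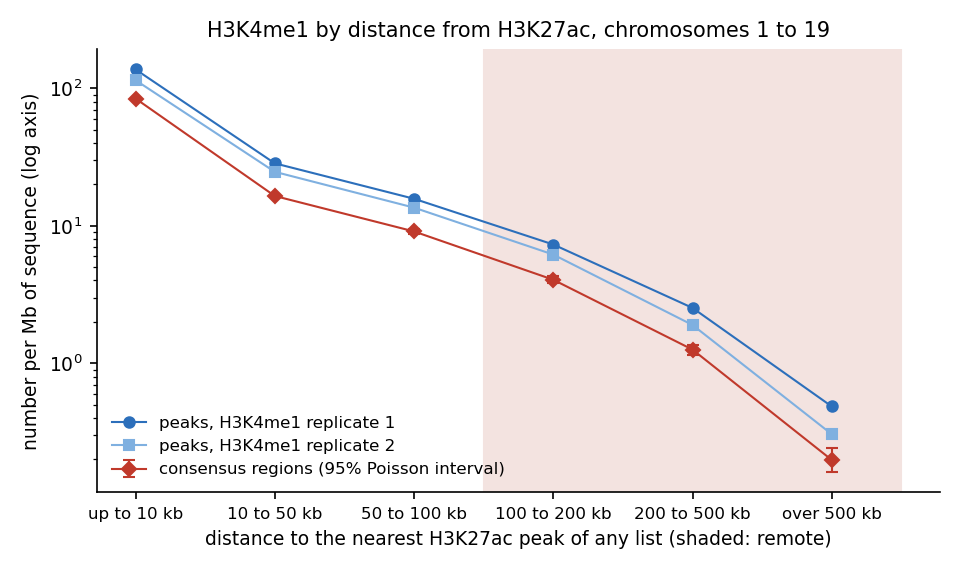
Number of H3K4me1 consensus regions (red, with 95% Poisson intervals) and of peaks in each H3K4me1 list (blues) per Mb of sequence, on a log axis, by distance from the nearest H3K27ac peak of any list. All 3 lines fall at every step, and the shaded classes are the remote ones, where consensus regions run from 4.05 to 0.198 per Mb.

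More than 100 kb from H3K27ac lay 1266.42 Mb, 52.7% of the sequence counted, and it held 1.52 consensus regions per Mb, against 35.4 per Mb in the remaining 1136.89 Mb. The ratio of these densities was 0.0429, and it was 0.0660 at a limit of 50 kb, 0.0239 at 200 kb and 0.0739 with H3K27ac regions from all 3 lists. In the separate lists the ratio of peak densities was 0.0492 in replicate 1 and 0.0468 in replicate 2, a mean of 0.0480 ± 0.00174 (SD, n = 2 lists). Stretches that cannot be sequenced or mapped were not removed from either length, and their part in the ratio was not tested.

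Most remote regions lay within 200 kb of H3K27ac. The median distance to the nearest H3K27ac peak was 159 kb, with quartiles of 123 and 239 kb. Of the 1923, 650 (33.8%) were more than 200 kb away, 102 (5.30%) more than 500 kb and 19 (0.988%) more than 1 Mb. At the other end, 240 regions (12.5%) lay within 110 kb, next to 335 consensus regions at 90 to 100 kb that missed the limit. The 3 members nearest the limit were 100.002, 100.015 and 100.022 kb from H3K27ac, with folds of 10.1 and 5.79, 6.93 and 6.89, and 7.70 and 6.84 in replicates 1 and 2. The 3 regions just outside it were 99.982, 99.953 and 99.942 kb away, with folds of 3.78 and 5.19, 14.2 and 7.66, and 5.08 and 8.76. Folds on the 2 sides of the limit overlapped.

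The 5 farthest regions stood 3634 to 3710 kb from any H3K27ac peak, and 3 of them were neighbours. The farthest, chr5:81450332-81450877, was 3710 kb away, with folds of 5.03 and 5.40 and no other consensus region nearer than 3521 kb. A row of 3 regions, with gaps of 0.868 and 1.51 kb, lay 3667 to 3671 kb away, from chr5:58105986-58106775 through chr5:58107643-58108200 to chr5:58109710-58111300. Their folds were 4.40 and 7.18, 7.62 and 5.71, and 8.05 and 9.79. The last, chr3:45180921-45181781, was 3634 kb away, with folds of 8.26 and 6.39. The region at chr5:58109710 had the highest replicate 2 fold of the 5, rank 3998 in that list.

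Remote regions were spread over many deserts, but 35.3% of them lay in 100 deserts. A desert was taken as a gap of more than 200 kb between neighbouring H3K27ac peaks, so that it has an interior more than 100 kb from both edges, and there were 2186. Of these, 796 (36.4%) held a remote region and 1390 held none. A single remote region was found in 369, 2 to 4 in 327 and at least 5 in 100, which together held 679 regions, and 13 deserts held at least 10. The remaining 5 remote regions lay at chromosome ends, outside any such gap.

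Long deserts were not the ones most densely marked. Deserts with a remote region had a median length of 522 kb, against 385 kb for those without. Yet the interiors of deserts of up to 500 kb held 6.48 remote regions per Mb, those of 500 to 1000 kb 2.33 per Mb, and those over 1 Mb 0.533 per Mb. Deserts of up to 500 kb held 843 remote regions, those of 500 to 1000 kb 612 and those over 1 Mb 463. Of the 446 deserts over 1 Mb, 264 held no remote region and 182 held one or more. Of all 2186 deserts, 1390 held none and 796 one or more, so long deserts were not more often empty. The longest desert without a remote region was 10798.4 kb, and the longest desert of all was 11592.7 kb. In a short desert the interior is closer to H3K27ac by construction.

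The 3 deserts with the most remote regions showed H3K4me1 in compact or spread arrangements. The first was a desert of 626 kb on chromosome 6, chr6:51963256-52589622. Its 18 remote regions all lay between 52107827 and 52264128, a stretch of 156 kb, separated by a median of 4.70 kb. Their highest folds were 3.47 to 10.8 in replicate 1 (median 6.50) and 3.08 to 7.90 in replicate 2 (median 5.90). The region with the best mean rank there, chr6:52209580-52210223, had folds of 10.8 and 7.44 from 43 and 24 tags, 246 kb from H3K27ac. The folds of these 18 regions thus sat near the medians of all remote regions. The desert was chosen for their number.

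The second desert, chr6:99617766-100620737, was 1003 kb long and held 17 remote regions over 665 kb, separated by a median of 24.0 kb. Their folds were 3.10 to 11.8 in replicate 1 (median 8.42) and 3.32 to 13.0 in replicate 2 (median 5.66), and the highest in replicate 2 was chr6:100366311-100366791, with folds of 8.42 and 13.0. The third, chr15:102555758-102982596, was 427 kb long and held 20 consensus regions, of which 16 were remote. Those 16 lay within 71.8 kb, from 102773326 to 102845091, separated by a median of 2.51 kb and covering 13.9 kb. Their folds were 3.88 to 9.71 in replicate 1 (median 7.25) and 4.38 to 10.4 in replicate 2 (median 6.57), and chr15:102806055-102806652, with 8.98 and 9.14 from 47 and 34 tags, had the best mean rank. All 16 had another consensus region within 10 kb, as had 14 of the 18 in the first desert and 9 of the 17 in the second. Such a neighbour was found for 48.7% of all remote regions and 78.4% of all consensus regions. These deserts were chosen for their many remote regions, which makes close neighbours more likely.

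**Figure D4:**
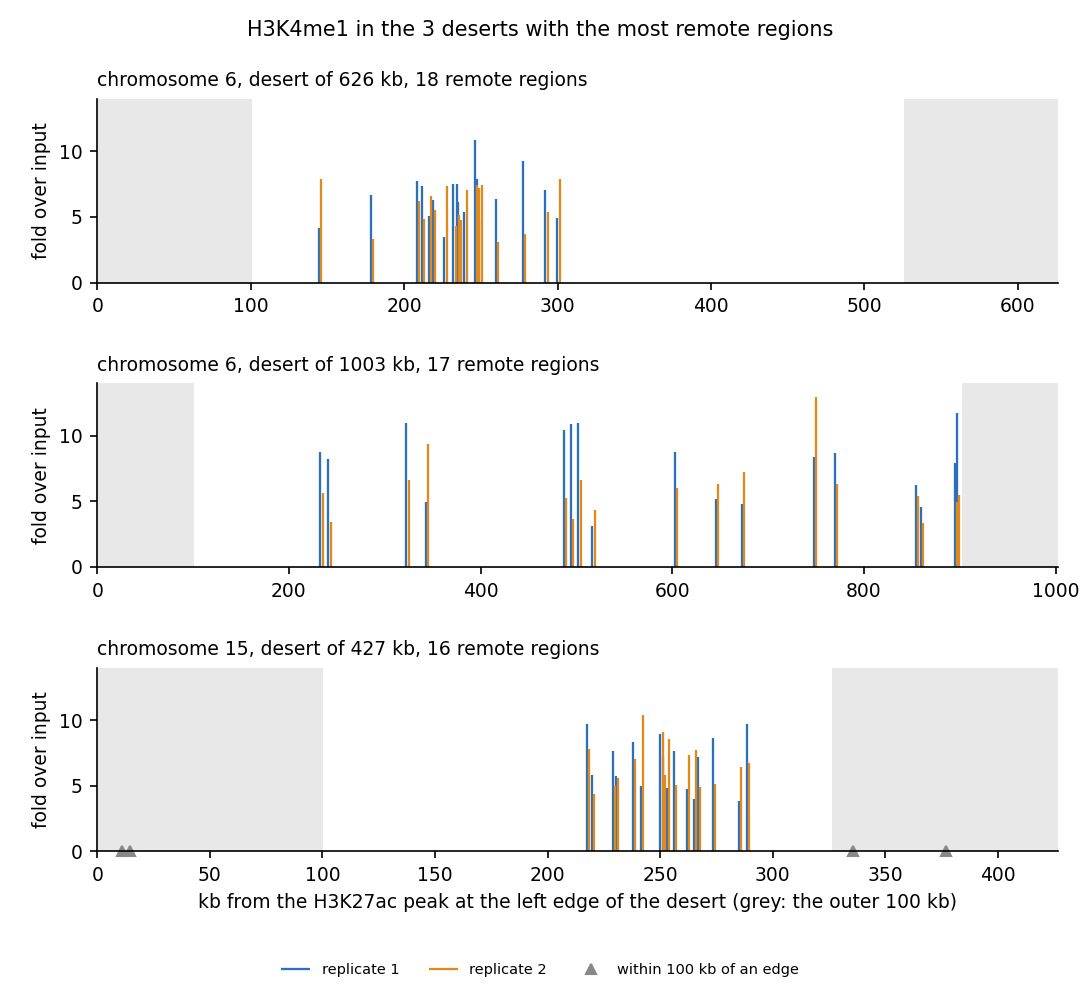
Highest fold over input of every remote region in replicate 1 (blue) and, drawn slightly to its right, replicate 2 (orange), along the 3 deserts with the most remote regions, in kb from the H3K27ac peak at the left edge. Grey bands mark the outer 100 kb and triangles the consensus regions in them; the 18 regions of the top desert crowd into 156 kb and the 16 of the bottom one into 71.8 kb, while the 17 of the middle one spread over 665 kb.

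The 3 deserts also held remote peaks of a single list, 16 in the first, 13 in the second and 14 in the third, counted as joined regions. Beside these, 18, 17 and 16 remote regions held a peak of both lists. Of all 4472 remote joined regions, 1923 (43.0%) held a peak of both, and 1619 and 930 came from replicate 1 or 2 only. The 3 deserts were chosen for their number of regions found in both lists. That choice raises their both-list share, so no comparison with 43.0% is drawn. At a −log10 q of at least 10 in both lists, 5 of 18, 8 of 17 and 8 of 16 remote regions were called, against 40.0% of all remote regions and 51.5% of all consensus regions.

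Groups of remote regions were also formed without the desert borders, by joining remote regions up to 10 kb apart, a grouping chosen after the values were seen. The largest group, on chromosome 15 from 102773326 to 102830565, held 14 remote regions in 57.2 kb, at least 152 kb from H3K27ac. Chromosome 6 from 52171868 to 52213433 held 12 in 41.6 kb, at least 209 kb away. Groups of 10 lay on chromosome 19 from 57178044 to 57208231 (30.2 kb, at least 222 kb away) and on chromosome 11 from 85640555 to 85658253 (17.7 kb, at least 113 kb away). A group of 9 on chromosome 2 from 105500690 to 105529805 included the fifth region by mean rank. On chromosome 11 the regions covered 9.65 of 17.7 kb, the densest of these 5 groups.

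Remote regions had a close neighbour less often than the other sets. Another consensus region within 10 kb was found for 936 remote regions, or 48.7% (46.4 to 50.9), against 78.4% of all consensus regions. The share was 73.9% (73.3 to 74.4) off H3K27ac within 100 kb and 88.7% (88.3 to 89.2) overlapping H3K27ac. Whether most remote regions had a neighbour depended on the settings: the share was 29.4% with peaks joined across 1000 bp, 33.1% with H3K4me1 peaks of −log10 q of at least 10, 54.8% with H3K27ac regions from all 3 lists, and 53.8% and 62.2% without H3K4me1 replicates 1 and 2. Counting only remote neighbours, 1003 regions stood alone, 212 groups had 2 members, 72 had 3 and 54 had at least 4, the last with 280 regions. The share near another region should be read beside the density, since where regions are fewer per Mb, fewer have a neighbour.

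Isolated and neighboured remote regions had like heights. The 987 with no other consensus region within 10 kb had median folds of 6.52 in replicate 1 and 6.27 in replicate 2, and the 936 with one had 6.63 and 6.12. In length they differed, with medians of 564 bp for isolated regions and 674.5 bp for those with a neighbour. Median tags at the summit were 32 and 25 for isolated regions, and 35 and 27 for those with a neighbour.

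The longest remote regions reached several kb without H3K27ac within 100 kb. The longest, chr14:67851796-67855309, was 3514 bp long, made of 2 peaks of replicate 1 and 3 of replicate 2, with highest folds of 10.4 and 8.47 and 223 kb from H3K27ac. Next were chr6:53767727-53771153 with 3427 bp and folds of 7.83 and 9.25, and chr2:172374112-172377224 with 3113 bp and folds of 8.36 and 8.29. The region chr7:30176442-30179357 was 2916 bp long with folds of 9.48 and 3.86. Its implied background, in the caller's scaled units, was 3.26 in replicate 1 and 8.00 in replicate 2. The fifth, chr19:37771331-37774068, was 2738 bp long with folds of 10.1 and 9.78. In replicate 1 all 5 were above the median fold of remote regions, and in replicate 2 the region on chromosome 7 was below it.

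Whether remoteness held in an H3K27ac list that had no part in the choice was measured by leaving each list out. Regions more than 100 kb from every peak of the other two lists numbered 2504, 2115 and 2050 with H3K27ac replicate 1, 2 or 3 left out. Of these, 23.2% (21.6 to 24.9), 9.08% (7.89 to 10.4) and 6.20% (5.19 to 7.33) had a peak of the left-out list within 100 kb. The same share over all consensus regions was not worked out, so these 3 shares have no base beside them. A peak of the left-out list overlapped 2.52% (1.94 to 3.21), 0.804% (0.469 to 1.28) and 0.634% (0.338 to 1.08) of them. Over all consensus regions the overlap with that list was 33.6%, 28.6% and 26.3%. For regions off H3K27ac within 100 kb by the same lists, the overlap was 9.50% (9.14 to 9.86), 3.79% (3.55 to 4.03) and 2.19% (2.01 to 2.38). In each of the 3 lists remote regions were overlapped less often than the closer ones. An exact two-sided sign test over 3 lists gave p = 0.25, the smallest it allows. Each list also helped to choose the regions when another was left out. The 3 comparisons are therefore not independent, and no support is drawn from the test. Replicate 1, the H3K27ac list with the most tags and peaks, took away the most remote regions.

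The H3K27ac regions that bounded deserts with a remote region were weaker by list count than all other H3K27ac regions. Those others include the borders of deserts without a remote region, which were not measured apart. Whether desert borders in general differ in this way was not tested. Of the 1564 joined H3K27ac regions next to a desert with a remote region, 38.8% came from a single list and 40.3% from all 3, against 35.1% and 45.8% of the 40637 other H3K27ac regions. Their median length was 459 bp, against 536 bp. Their median highest folds were 7.93, 6.64 and 7.54 in H3K27ac replicates 1, 2 and 3, against 8.12, 6.88 and 7.66. A border set by a peak of 1 list alone can move when that list is left out.

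Every chromosome from 1 to 19 held remote regions, 61 on chromosome 15 to 161 on chromosome 1. As a share of a chromosome's consensus regions they ran from 2.56% (2.04 to 3.16) on chromosome 7 to 8.05% (6.78 to 9.47) on chromosome 13, with a median of 4.62%. Per Mb more than 100 kb from H3K27ac, there were 1.01 on chromosome 3 to 3.09 on chromosome 19. The ratio of that density to the density in the rest of the chromosome was 0.0239 on chromosome 7 to 0.0852 on chromosome 13, so that remote regions were sparser than the others on every chromosome. Chromosomes 11, 13 and 19 had the highest densities of remote regions, with 2.44, 2.23 and 3.09 per Mb, and among them chromosome 11 had by far the most other regions, 53.2 per Mb of the rest, against 26.1 on chromosome 13 and 37.7 on chromosome 19. Median folds of remote regions by chromosome were 5.99 to 7.02 in replicate 1 and 5.79 to 6.65 in replicate 2, with the lowest of each on chromosome 17.

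**Figure D5:**
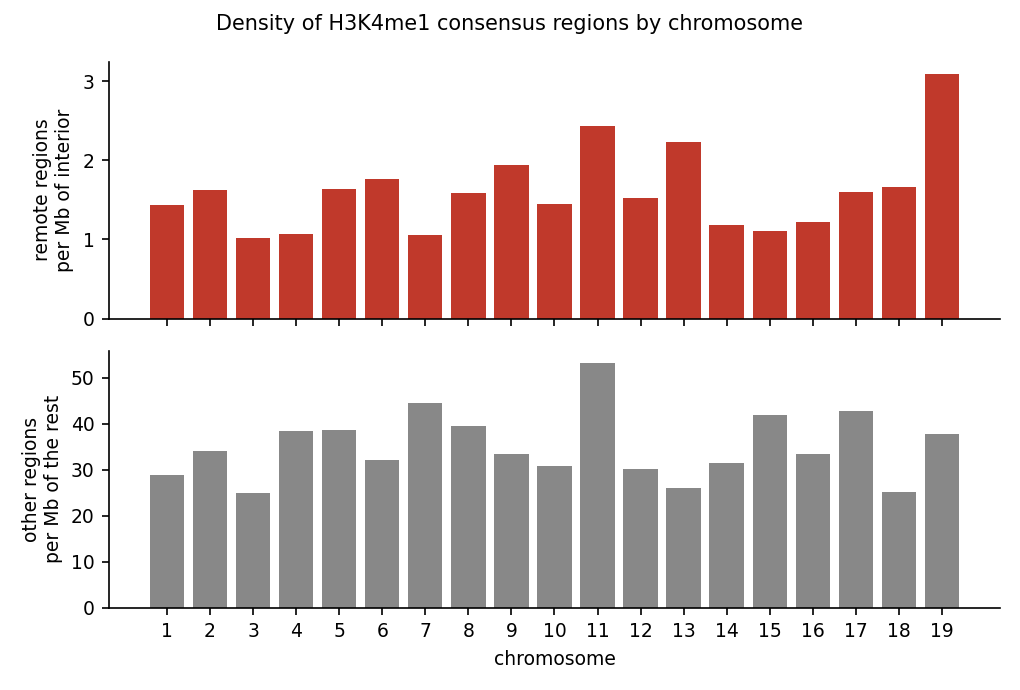
Remote regions per Mb of sequence more than 100 kb from H3K27ac (top, red) and other H3K4me1 consensus regions per Mb of the rest of the sequence (bottom, grey), for chromosomes 1 to 19. Red bars run from 1.01 on chromosome 3 to 3.09 on chromosome 19, grey bars from 24.9 on chromosome 3 to 53.2 on chromosome 11.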

How the data were processed

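Chromatin of cultured mast cells, fixed with 1% formaldehyde, was immunoprecipitated and read on an Ion Torrent Proton instrument (source: the labels' protocols). Each deposited list holds the MACS2 peaks of 1 immunoprecipitate called against its own input with q-values under 0.001, per the file headers, which name version 2.1.1.20160309 for H3K27ac and 2.0.10.20130306 for H3K4me1. Per the submitters' processing notes, MACS2 was version 2.0.10.20130306 and the build mm9. For the aligner, nothing is stated in the sources used here. The fold enrichment (a ratio to local input) and the −log10 p-value and q-value are the authors' deposited values. The pileup signal, scaled by the caller per the file headers, was unscaled to tags, which came out whole within 0.05 for 100% of peaks. Per the file headers, estimated fragments in the H3K27ac lists were 199 to 210 bp, and in the H3K4me1 lists 203 and 255 bp.

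Overlapping peaks were joined, and distances run from edge to edge. A region's fold is the highest of its peaks in a list, and sets of regions were compared by fold only within a list, while the folds of the 2 H3K4me1 lists were set side by side region by region. Shares have 95% Clopper-Pearson intervals and densities 95% Poisson intervals. Both kinds count regions as independent. Of the 1923 remote regions, 920 lay in groups of at least 2 joined within 10 kb, so the intervals may be too narrow. The regions named were the 5 remote regions with the best mean rank by fold, the 5 farthest, the 5 longest, the 3 deserts with most, and 3 regions on each side of the limit. The members and these rules were chosen with earlier results of these data known. Motif search and gene annotation, planned for a genome of the build, were not run. The scripts were tested on simulated data, where the number of remote regions found equalled the number made in 20 of 20 simulations. On the real lists, bedtools 2.31.1 gave the same count of 1923. Python 3.11.15, NumPy 2.4.6, pandas 2.3.3, SciPy 1.17.1 and Matplotlib 3.10.9 were used.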

Additional observations from a re-analysis of the deposited data

How the results depend on the processing

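The 7 results below were computed again under up to 17 alternatives, all planned. In all 32 alternative values of the fold ratios, remote regions stayed below all other consensus regions together, which include those overlapping H3K27ac. Against regions off H3K27ac within 100 kb the ratios were 0.988 and 0.991, and these were not computed under the alternatives. The same lists chose the regions, so no support is drawn from this count. The number of remote regions, 1923 as reported, was 768 with H3K4me1 peaks of −log10 q of at least 10, 3096 with H3K27ac peaks of that score, 3053 and 4469 with H3K27ac regions from at least 2 or all 3 lists, and 4557 and 650 at limits of 50 and 200 kb; leaving out a replicate gave 2050 to 3650. The ratio of densities, 0.0429, was 0.0331, 0.0597, 0.0587, 0.0739, 0.0660 and 0.0239 in the same order, 0.0508 with peaks joined across 1000 bp, 0.0410 with chromosome X, and 0.0449 to 0.0515 without a replicate.

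The ratio of median fold to all other regions was 0.941 in replicate 1 and 0.960 in replicate 2. With H3K4me1 −log10 q of at least 10 it was 0.971 and 0.988, with H3K27ac from at least 2 lists 0.954 and 0.976, from all 3 lists 0.959 and 0.981, at 200 kb 0.955 and 0.928, and with tags in place of fold 0.895 and 0.867. In replicate 2 alone it moved to 0.979 with H3K27ac peaks of −log10 q of at least 10 and 0.927 with joining across 1000 bp. The ratio of median length, 0.997, became 0.807 with that joining and was 0.938 to 1.00 without a replicate.

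The share found in both lists, 43.0%, was 41.1% and 31.3% at H3K4me1 −log10 q of at least 5 and 10, 44.9% with H3K27ac from all 3 lists, 45.2% and 40.1% at 50 and 200 kb, and 49.0% with joining; with an H3K27ac replicate left out it was 43.0% to 44.0%. The share with a neighbour within 10 kb, 48.7%, was 46.2% and 33.1% at those scores, 53.2% with H3K27ac peaks of −log10 q of at least 10, 53.1% and 54.8% with H3K27ac from at least 2 or all 3 lists, 51.4% at 50 kb, 29.4% with joining and 49.1% to 62.2% without a replicate. Stricter scores, joining and left-out lists change the regions counted by construction; otherwise the cause was not tested. No paired analysis was possible because each result comes from the lists of both marks together, and the sample titles run from 1 to 5 across both marks, so that a shared replicate number names no shared culture. The effect of depth on what is called remote was not tested.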

Other observations

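Chromosome X was left out of the counts above. By the same limits, 23 of its 160 H3K4me1 consensus regions were remote, or 14.4% (95% Clopper-Pearson interval 9.34 to 20.8), at 0.192 remote regions per Mb more than 100 kb from H3K27ac, against 3.34 other regions per Mb of the rest. Of its sequence, 74.5% lay more than 100 kb from H3K27ac, against 37.0% to 61.5% of each of chromosomes 1 to 19. Those chromosomes held 24.9 to 53.2 other regions per Mb of the rest, so H3K4me1 regions near H3K27ac were also sparser on chromosome X. Why chromosome X held fewer was not tested.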
